A study of Mus musculus with 32 samples.

Results

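The genes described here are 7 channel genes of the mouse cochlea. They comprise the connexins Gjb2, Gjb6, Gjb1, Gja1, Gja4 and Gjc3 and the pannexin Panx1. They were chosen by name, as the rows of all 32 files whose gene symbol is one of these, out of 39399 genes listed in both strains' files and out of 23 connexin and pannexin genes in all. No measured value of the files entered that rule, and each of the 7 was listed in all 32 libraries.

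The libraries are RNA sequencing of cochleae from 10-week-old mice that carry a RiboTag allele, by which Cre-expressing cells make an HA-tagged form of the ribosomal protein Rpl22. In the Prestin strain (PrestinCre/+;RiboTagHA/+ in the labels, PrestinCreERT2;RiboTag;CBA in the design text) the driver is that of the outer hair cell motor protein gene Slc26a5, and in the Sox2 strain (Sox2Cre/+;RiboTagHA/+ in the labels, Sox2CreERT2;RiboTag;CBA in the design text) it is that of Sox2, a gene of supporting cells and, as background, also of glia. From each homogenate an HA immunoprecipitate (IP), which is meant to hold RNA bound to tagged ribosomes, was compared with an aliquot of the whole homogenate (input). The noise lasted 2 h at 105 dB SPL, cochleae were taken 6 h or 24 h later, and control mice of the same alleles had no noise. The Prestin strain had 3 IPs and 3 inputs at 6 h, 3 and 3 at 24 h and 3 and 3 in controls. The Sox2 strain had 2 IPs and 2 inputs at 6 h, 3 and 3 at 24 h and 2 and 2 in controls.

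Connexins assemble into hexagonal hemichannels, and hemichannels of neighbouring cells dock to form gap junctions that pass ions and small molecules. In the cochlea Gjb2 and Gjb6 encode the main gap junction subunits of supporting cells, of the lateral wall and of its fibrocytes, and loss of either is a known cause of inherited deafness. Gjb1 and Gjc3 are known from myelinating Schwann cells, Gja4 from vascular endothelium, and Gja1 from many tissues, among them astrocytes. Panx1 forms single-membrane channels that release ATP, which acts on purinergic receptors.

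Gjb2 and Gjb6 are shown by sequence because they are neighbours in the genome and their levels moved apart after noise. In the GRCm38 build, with GENCODE M21 gene models, Gjb2 lies on the minus strand at chr14:57098600-57104702 and Gjb6 on the same strand at chr14:57123303-57133611, 18.6 kb away, with the predicted gene Gm4491 between them. Gjb1 lies on the X chromosome, Gja1 on chromosome 10, Gja4 on chromosome 4, Gjc3 on chromosome 5 and Panx1 on chromosome 9. All 7 are protein-coding, and no other annotated gene overlaps any of them. All 7 have an entry among the RefSeq promoters of build GRCm38.p6, which run from 250 bases before to 50 bases after a gene's start. The promoter of Gjb2 lies at chr14:57104653-57104952 and that of Gjb6 at chr14:57133562-57133861, both printed along the minus strand, 5′ to 3′, with the GC box (GGGCGG on either strand) in capitals.
Gjb2: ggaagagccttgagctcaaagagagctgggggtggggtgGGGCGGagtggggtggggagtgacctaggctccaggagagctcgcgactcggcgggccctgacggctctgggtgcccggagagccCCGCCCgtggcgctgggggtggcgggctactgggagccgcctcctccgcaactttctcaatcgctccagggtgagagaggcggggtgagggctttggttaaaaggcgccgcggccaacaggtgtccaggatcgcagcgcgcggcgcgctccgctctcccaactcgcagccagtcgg
Gjb6: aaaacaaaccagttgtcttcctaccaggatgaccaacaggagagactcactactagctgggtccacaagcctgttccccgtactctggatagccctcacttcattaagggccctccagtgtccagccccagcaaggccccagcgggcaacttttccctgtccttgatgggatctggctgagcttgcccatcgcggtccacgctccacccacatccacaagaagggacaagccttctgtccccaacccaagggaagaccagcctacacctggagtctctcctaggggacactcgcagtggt
The Gjb2 window is 70.0% G or C and holds 2 GC boxes. The Gjb6 window is 57.3% G or C and holds none. Neither window holds a TATA box (written TATAAA) on either strand. Both also lack an AP-1 site, searched as TGANTCA on both strands, and the core of an E-box, searched as CACGTG. Of 32851 promoters of the same length, 35.7% hold the GC box, 13.6% the TATA box, 7.81% the AP-1 site and 7.15% the E-box core. A match of letters is a description of these windows and no statement about a factor.

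Levels are TPM, which counts a gene's reads per length and per library and keeps no sequencing depth. Slc26a5, the gene of the Prestin driver, reached 6.26 to 25.4 TPM in the Prestin IPs, against 0.949 to 1.75 TPM in their inputs, and Sox2 reached 259 to 654 TPM in the Sox2 IPs, against 32.5 to 63.7 TPM in theirs. Sox2, a supporting cell marker, read 49.9 to 112 TPM in the Prestin IPs, against 45.8 to 85.3 TPM in their inputs, a log2 difference of 0.53 ± 0.12 (adjusted p = 0.00131) where the median of all genes was 0.82. Of the outer hair cell markers 10 of 11 were higher and 1 lower in the Prestin IPs over input (median 2.30), and of the supporting cell markers 10 of 14 were higher and 2 lower (median 0.60), where 68.5% of all genes were higher. The Sox2 IPs had 13 of 14 supporting cell markers higher and none lower (median 1.73), where 55.2% of all genes were higher with a median of 0.65. Mitochondrial genes held 4.91% to 13.7% of the Prestin IPs and 3.07% to 8.83% of the Sox2 IPs, against 21.5% to 27.4% of the Prestin inputs and 20.5% to 28.6% of the Sox2 inputs. The nuclear RNA Malat1 was higher in the IPs, at 12251 to 73023 TPM in the Prestin strain, against 2304 to 4226 TPM in the inputs. In the Sox2 strain it read 8533 to 18789 TPM in the IPs, against 2577 to 3870 TPM in the inputs. The part of RNA not bound to ribosomes in the IP over input values was not tested. The Prestin IP of control replicate 1 stood apart from the other control IPs of its strain, with a summed level of 11 outer hair cell markers of 2289 TPM, against 848 and 1288 TPM in the other two. The 4 Sox2 libraries at 6 h had the fewest genes above 0, 15929 to 16966. The labels' protocols speak of biological triplicates, but nothing names the animals behind a library, so p-values measure the spread between these samples.

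Gjb2 and Gjb6 made up 86.3% to 98.0% of the summed TPM of the 7 genes in every library. In the Prestin strain Gjb2 ran from 953 TPM over a median of 1427 to 2759 TPM in the IPs and from 894.5 TPM over a median of 1414 to 1950 TPM in the inputs. Gjb6 followed at 328.5 to 1167 TPM in the Prestin IPs and at 406.4 to 712.6 TPM in the Prestin inputs. The order was the same in the Sox2 strain, with Gjb2 at 1265 to 2460 TPM in the IPs and 1095 to 2195 TPM in the inputs and Gjb6 at 656.9 to 912.8 TPM in the IPs and 440.6 to 741 TPM in the inputs. Libraries of the 2 genes overlapped only in the Prestin IP control group. Gjc3 ranked next in all 12 groups, at 91.5 to 237.7 TPM in the IPs and 30.2 to 45.6 TPM in the inputs, and overlapped with the next gene only in the Sox2 IP control group, where that gene was Gja1. Gjb1, Gja1 and Gja4 changed places between groups and overlapped with a neighbour in the order in 10 of the 12 groups. Panx1 was last everywhere, at 0.443 to 3.46 TPM.

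**Figure D1:**
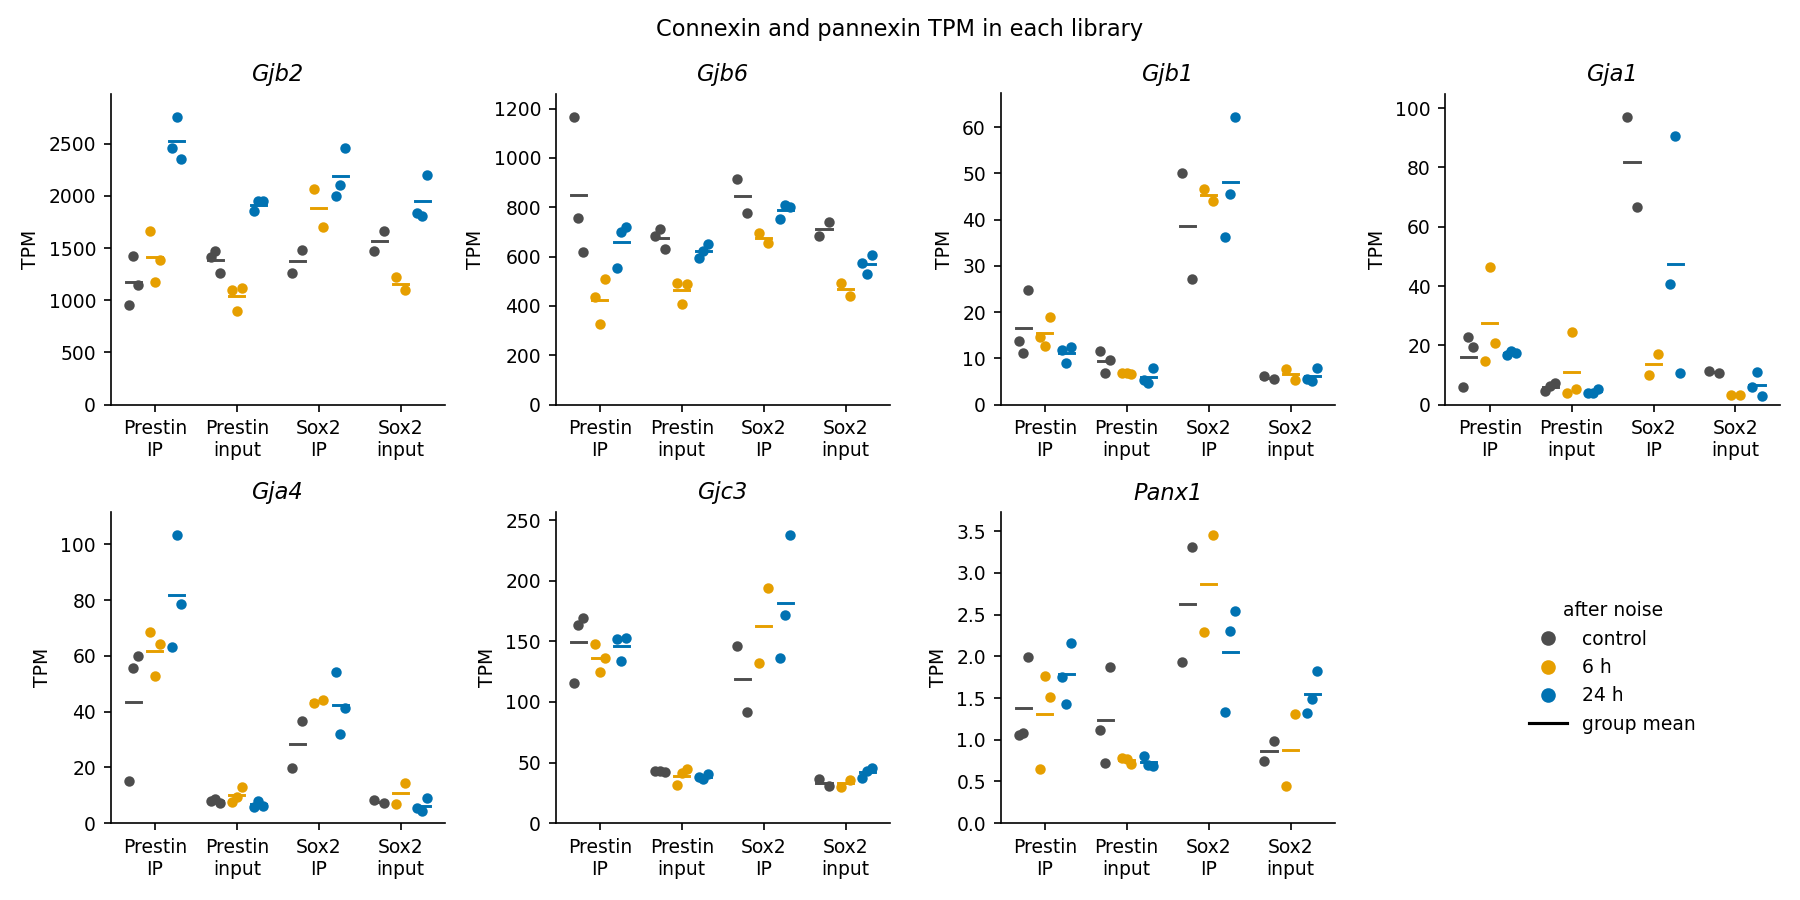
TPM of each of the 7 genes, 1 panel a gene with its own axis from 0, by strain, fraction and time after noise, with each point a library and each line the group mean. Gjb2 reaches 2759 TPM and Gjb6 reaches 1167 TPM, while Panx1 stays at 0.443 to 3.46 TPM.

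The inputs show the whole cochlea's response to noise. Both main connexins were lower at 6 h, and at 24 h Gjb2 was above its control level while Gjb6 was not called. Gjb2 in the Prestin inputs read 1414, 1471 and 1263 TPM in controls, 1100, 894.5 and 1122 TPM at 6 h and 1852, 1950 and 1946 TPM at 24 h. In the Sox2 inputs it read 1473 and 1664 TPM in controls, 1223 and 1095 TPM at 6 h and 1836, 1806 and 2195 TPM at 24 h. All 5 inputs at 6 h lay below all 5 controls, and all 6 inputs at 24 h lay above them. With limma on log2(TPM + 1) over 14204 genes and both strains, Gjb2 fell by 0.42 ± 0.08 (log2 fold change ± standard error) at 6 h (adjusted p = 0.00429) and rose by 0.40 ± 0.08 at 24 h (adjusted p = 0.00635). Between the later and the earlier time it was higher by 0.82 ± 0.08 (adjusted p = 1.06e-05).

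Gjb6 in the Prestin inputs read 683, 712.6 and 629.2 TPM in controls, 494.6, 406.4 and 490.6 TPM at 6 h and 595.5, 624.2 and 652.3 TPM at 24 h. In the Sox2 inputs it read 682.4 and 741 TPM in controls, 494.2 and 440.6 TPM at 6 h and 572.7, 528.4 and 606.6 TPM at 24 h. Again no input at 6 h reached a control, whereas at 24 h the Prestin inputs overlapped with their controls. Gjb6 fell by 0.57 ± 0.07 at 6 h (adjusted p = 0.000214), was lower by 0.21 ± 0.07 at 24 h without passing the threshold (adjusted p = 0.124), and rose by 0.36 ± 0.07 between 6 h and 24 h (adjusted p = 0.00279). Within the Prestin inputs alone both genes passed at 6 h (Gjb2 -0.42, adjusted p = 0.0483, and Gjb6 -0.54, adjusted p = 0.0146), as did Gjb2 at 24 h (0.47, adjusted p = 0.0308). Within the Sox2 inputs alone, with 2 libraries at 6 h and in controls, neither passed at 6 h (-0.44, adjusted p = 0.146, and -0.61, adjusted p = 0.0598), and Gjb2 did not at 24 h (0.31, adjusted p = 0.635). With median-of-ratios scaling the rise of Gjb6 between 6 h and 24 h was not called (0.27, adjusted p = 0.0671). In bulk samples, fewer cells of a type and less RNA per cell cannot be told apart.

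The other 5 members did not pass the test in any of the 3 input comparisons. At 6 h 2 of the 7 genes were called, both lower, against 8.54% of all genes tested (4.71% lower). At 24 h the only call among them was Gjb2, higher, against 4.44% of all genes (3.78% higher). Between 24 h and 6 h 2 of 7 were called, both higher, against 16.1% of all genes (12.6% higher). Gja4 came close to the threshold there, with a log2 difference of -0.57 ± 0.19 (adjusted p = 0.0514), and passed with median-of-ratios scaling (-0.66, adjusted p = 0.0358) and when any of 4 single inputs was left out (adjusted p = 0.0233 to 0.0498). The summed level of 8 fibrocyte markers in the inputs was 11631 to 13289 TPM in controls, 9312 to 11116 TPM at 6 h and 7452 to 11005 TPM at 24 h, and that of 15 supporting cell markers was 1446 to 1551 TPM in controls, 1600 to 1804 TPM at 6 h and 1410 to 1561 TPM at 24 h. That of 10 macrophage markers was 152 to 205 TPM in controls, 126 to 179 TPM at 6 h and 324 to 485 TPM at 24 h. That of 10 bone markers was 3680 to 4576 TPM in controls, 4756 to 6017 TPM at 6 h and 5147 to 7234 TPM at 24 h. Most bone markers did not share that rise. Their median log2 difference was -0.20 at 6 h and -0.24 at 24 h, against -0.09 and 0.02 over all genes. At 6 h 1 of 8 fibrocyte markers and 1 of 8 macrophage markers were called lower, 2 of 14 supporting cell markers higher, and 1 of 9 bone markers higher and 1 lower. At 24 h 4 of the 8 macrophage markers tested were called higher and none lower, 1 of 8 fibrocyte markers higher and 1 lower (median 0.17), 2 of 14 supporting cell markers higher and 1 lower, and 1 of 9 bone markers higher and 1 lower. None of these markers was at 0 in a group, and the part of these cells in the Gjb2 and Gjb6 differences was not tested.

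In the Prestin IPs Gjb2 read 953, 1427 and 1147 TPM in controls, 1666, 1177 and 1385 TPM at 6 h and 2456, 2759 and 2348 TPM at 24 h. All 3 IPs at 24 h lay above all control and all 6 h IPs. At 24 h Gjb2 averaged 2521 ± 213 TPM, against 1176 ± 238 TPM in control IPs (SD, n = 3 each), a rise of 1.12 ± 0.21 on the log2 scale (adjusted p = 0.0288 over 16703 genes). It was the only member of 7 called, against 6.23% of all genes (1.10% higher), and the call was lost, with an adjusted p from 0.0626 to 0.108, when any single IP at 24 h or control replicate 3 was left out. It was also lost without the filter on low genes (adjusted p = 0.0593). At 6 h its log2 difference was 0.27 ± 0.21 (adjusted p = 0.446). Malat1, a nuclear RNA, held 15602 to 21421 TPM at 6 h and 12251 to 22823 TPM at 24 h in these IPs, against 44030 to 73023 TPM in the control IPs. The summed levels of 3 other marker lists at 24 h lay above the control IPs without overlap. They were 713 to 805 TPM for stria vascularis, 227 to 349 TPM for macrophages and 3167 to 4118 TPM for bone, against 432 to 613, 89.0 to 137 and 1440 to 2358 TPM in the control IPs. Of each of these lists 1 marker was called higher and none lower, and none was at 0 in a group. The median log2 difference was 0.48 for stria vascularis and 1.11 for macrophages, against -0.15 over all genes. For bone it was -0.19, so the rise of the bone sum was not shared by most genes of that list. The sum of 10 neuron markers lay below, at 880 to 1267 TPM, against 1434 to 2355 TPM in the control IPs. The part of Malat1 and of these cells in the Gjb2 difference was not tested.

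Gjb6 in the same Prestin IPs read 1167, 757 and 618.9 TPM in controls, 438.2, 328.5 and 510 TPM at 6 h and 553.5, 700.9 and 719 TPM at 24 h. No IP at 6 h reached a control, but the log2 difference of -0.96 ± 0.27 did not pass the threshold (adjusted p = 0.0740). In a joint fit with the inputs it passed (adjusted p = 0.0048). At 24 h the difference from control was -0.32 ± 0.27 (adjusted p = 0.468). At 6 h limma called 0 of 7 members in the Prestin IPs, against 5.63% of all genes, with 4376 genes at an unadjusted p under 0.05. Between 24 h and 6 h it called 0 of 7, against 0.102% of all genes, with 1328 genes at an unadjusted p under 0.05, and the joint fit called Gjb2.

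In the Sox2 IPs Gjb2 read 1265 and 1477 TPM in controls, 2062 and 1701 TPM at 6 h and 1997, 2108 and 2460 TPM at 24 h. Gjb6 read 912.8 and 778.2 TPM in controls, 694.6 and 656.9 TPM at 6 h and 754.1, 811 and 802.7 TPM at 24 h. Every noise IP thus lay above both controls for Gjb2, and both 6 h IPs lay below them for Gjb6. The log2 differences for Gjb2 were 0.45 ± 0.20 at 6 h (adjusted p = 0.305) and 0.67 ± 0.18 at 24 h (adjusted p = 0.274), and for Gjb6 -0.32 ± 0.15 (adjusted p = 0.341) and -0.10 ± 0.14 (adjusted p = 0.813). No member was called in the Sox2 IPs at 6 h (0.694% of all genes called, 3173 genes at an unadjusted p under 0.05), at 24 h (0.188% and 2028 genes) or between these times (0.506% and 2159 genes). The joint fit with the inputs called Gjb2 at 24 h (adjusted p = 0.0418).

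**Figure D2:**
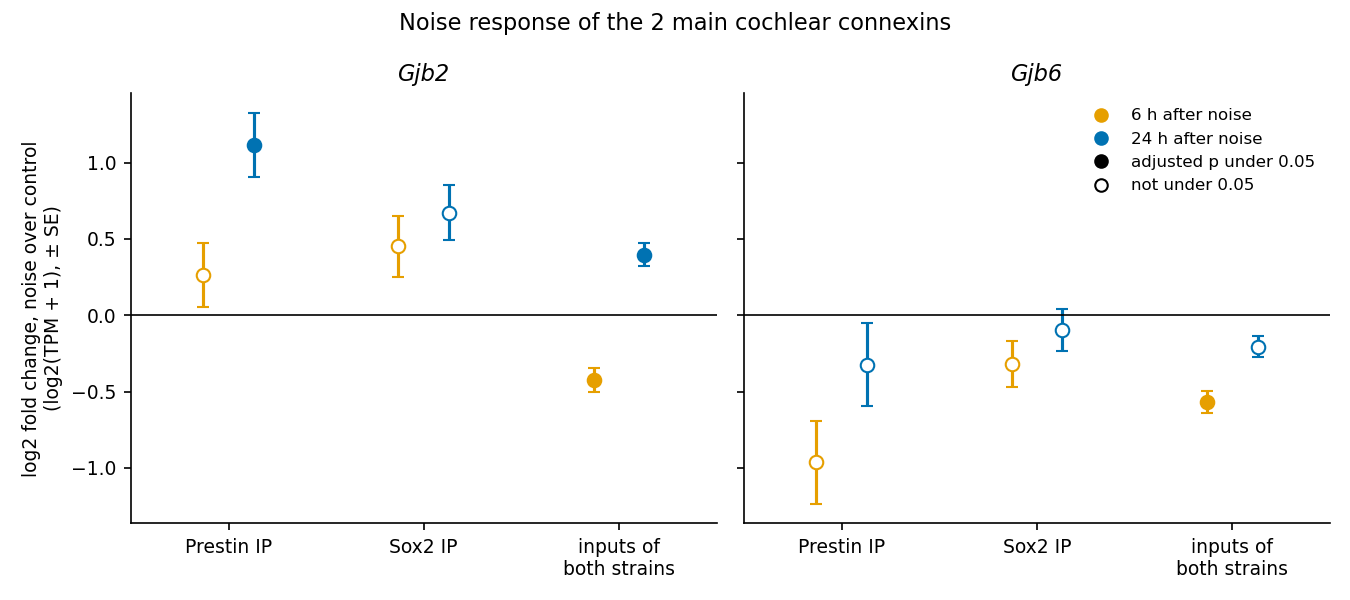
Log2 fold change of Gjb2 and Gjb6 at 6 h and 24 h over control in the IPs of each strain and in the inputs of both, with bars for the standard error of the fit and filled points for an adjusted p under 0.05. In the inputs Gjb2 lies at -0.42 at 6 h and 0.40 at 24 h, and Gjb6 lies at -0.57 at 6 h and -0.21 at 24 h.

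The IP and input of a homogenate also differed in how Gjb2 stood between them. Gjb2 in the IP was 0.674, 0.970 and 0.908 times its own input in the 3 Prestin control homogenates and 0.859 and 0.887 times in the 2 Sox2 control homogenates. After noise it was 1.51, 1.32 and 1.23 times input at 6 h and 1.33, 1.42 and 1.21 times at 24 h in the Prestin strain, and 1.69 and 1.55 times at 6 h and 1.09, 1.17 and 1.12 times at 24 h in the Sox2 strain. All 5 control homogenates thus had less Gjb2 in the IP than in the input, and all 11 noise homogenates had more, on the deposited scaling. With median-of-ratios scaling Gjb2 over all conditions was lower in the IPs, with a log2 difference of -0.89 in the Prestin strain and -0.69 in the Sox2 strain, so the side of 1 on which a homogenate falls depends on the scaling. As an interaction, the IP response exceeded the input response by 0.68 ± 0.22 at 6 h (adjusted p = 0.101) and 0.64 ± 0.22 at 24 h (adjusted p = 0.147) in the Prestin strain, and by 0.89 ± 0.23 (adjusted p = 0.204) and 0.36 ± 0.21 (adjusted p = 0.920) in the Sox2 strain. No member passed in these interactions, against 2.42% and 1.04% of all genes called at 6 h and 24 h in the Prestin strain and 0.269% and 0.0485% in the Sox2 strain. Genes at an unadjusted p under 0.05 numbered 3406 and 3031 in the Prestin strain and 2030 and 1025 in the Sox2 strain. Without control replicate 2 of the Prestin IPs, Gjb2 passed at 6 h (0.83, adjusted p = 0.0298) and at 24 h (0.79, adjusted p = 0.042). Without both libraries of Prestin control homogenate 1 it was 0.52 at 6 h (adjusted p = 0.315) and 0.48 at 24 h (adjusted p = 0.408).

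The ratio of Gjb6 to Gjb2 within a library does not depend on how libraries are scaled to each other. In the inputs of both strains it was 0.445 to 0.498 in the 5 controls, 0.402 to 0.454 in the 5 libraries at 6 h and 0.276 to 0.335 in the 6 libraries at 24 h. The 24 h inputs lay below all others, and within each strain the 6 h inputs lay below the controls too. In the IPs it was 0.527 to 1.23 in the 5 controls, 0.263 to 0.386 in the 5 libraries at 6 h and 0.225 to 0.385 in the 6 libraries at 24 h. Every noise IP lay below every control IP, while the IPs at 6 h and 24 h overlapped. In the Prestin strain the ratio averaged 0.303 ± 0.0567 in the IPs and 0.447 ± 0.00879 in the inputs at 6 h (SD, n = 3 each), and in the Sox2 strain 0.362 ± 0.0350 in the IPs (n = 2) and 0.403 ± 0.00126 in the inputs (n = 2). At 24 h it averaged 0.262 ± 0.0410 in the Prestin IPs and 0.326 ± 0.00828 in the Prestin inputs (SD, n = 3 each). In the Sox2 strain at 24 h it was higher in the IPs, at 0.363 ± 0.0319, than in the inputs, at 0.294 ± 0.0178 (SD, n = 3 each). In controls it averaged 0.765 ± 0.398 in the Prestin IPs, where replicate 1 had 1.23 and the other two had 0.531 and 0.539, and 0.488 ± 0.00828 in the Prestin inputs (SD, n = 3 each). It averaged 0.624 ± 0.138 in the Sox2 control IPs and 0.454 ± 0.0128 in the Sox2 control inputs (SD, n = 2 each). These ratios are given as a description, with no test.

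**Figure D3:**
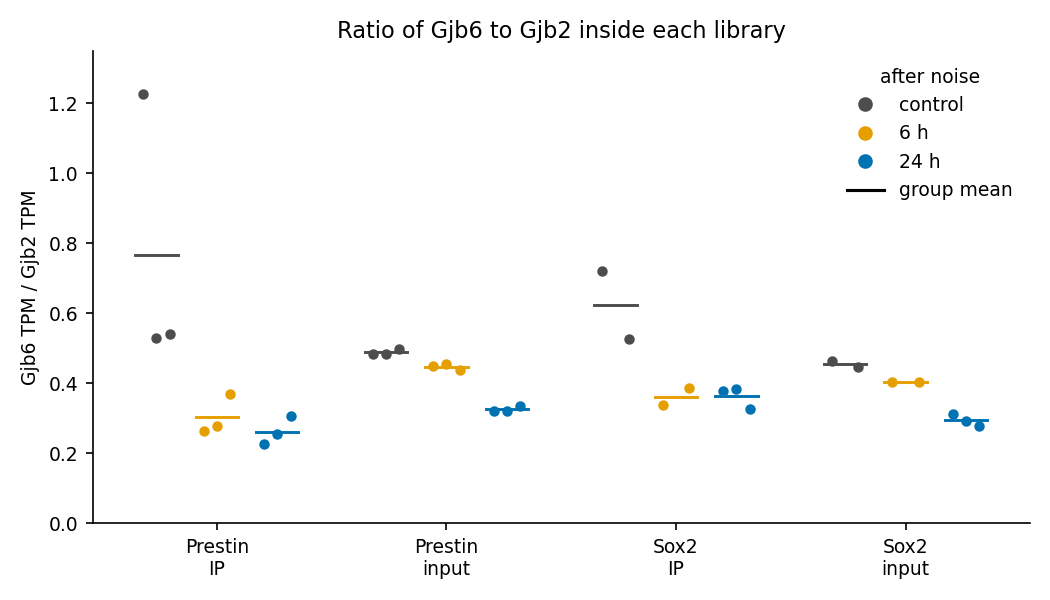
Ratio of Gjb6 to Gjb2 TPM within each library, by strain, fraction and time after noise. The 6 inputs at 24 h sit between 0.276 and 0.335, below the 5 control inputs at 0.445 to 0.498, and the 11 noise IPs sit below the 5 control IPs.

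The pull-downs set the members apart. Compared with input over all 3 conditions, Gja4, Gjc3, Gja1 and Gjb1 were higher in the IPs of both strains, although Gjb1 in the Prestin strain turned to -0.11 with median-of-ratios scaling of the libraries. Panx1 was higher too at a very low level, though it turned to -0.18 in the Prestin strain with that scaling. Gjb6 passed the test in the Sox2 strain, where that scaling turned it to -0.498, and Gjb2 passed in neither strain. In the Prestin strain 5 of the 7 were called, all higher, against 76.1% of 17363 genes (68.5% higher), and the median of all genes was 0.82. In the Sox2 strain 6 of 7 were called, all higher, against 57.9% of 18560 genes (55.2% higher), with a median of 0.65. With such shares over all genes, the count of members called is no result about them. Median-of-ratios scaling brought the median gene to 0.05 in the Prestin strain and 0.02 in the Sox2 strain. Under it Gja4 (1.65) and Gjc3 (0.75) were still called in the Prestin strain and Gjb1 (1.77), Gja1 (1.47), Gja4 (1.25) and Gjc3 (1.13) in the Sox2 strain, while Gja1 (0.48) was not called in the Prestin strain (adjusted p = 0.185). In the control libraries alone Gjb1 (0.71, adjusted p = 0.107), Gja1 (1.12, adjusted p = 0.0878) and Panx1 (0.10, adjusted p = 0.762) were not called in the Prestin strain, nor Gjb6 (0.24, adjusted p = 0.323) and Panx1 (0.94, adjusted p = 0.0905) in the Sox2 strain.

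Gjb2 differed between IP and input by 0.19 ± 0.09 in the Prestin strain (adjusted p = 0.0626) and 0.22 ± 0.09 in the Sox2 strain (adjusted p = 0.0513), and with the homogenate as a block it passed in both (adjusted p = 0.0358 and 0.0174). It also passed in the Prestin strain when the IP of control replicate 1 (adjusted p = 0.0146) or of 6 h replicate 2 (adjusted p = 0.0246) was left out. In the Sox2 strain it passed when the IP of control replicate 1, of 6 h replicate 4 or of 24 h replicate 1, or the input of 24 h replicate 3, was left out (adjusted p = 0.0306 to 0.0439). Without the 4 Sox2 libraries at 6 h the Sox2 value was -0.01 (adjusted p = 0.924). In the control libraries alone Gjb2 stood at -0.25 in the Prestin strain (adjusted p = 0.267) and at -0.20 in the Sox2 strain (adjusted p = 0.459). Gjb6 differed by 0.07 ± 0.12 in the Prestin strain (adjusted p = 0.609) and by 0.42 ± 0.07 in the Sox2 strain (adjusted p = 0.000306), where all 7 IPs lay above their own input, by 1.05 to 1.54 times. With median-of-ratios scaling Gjb2 stood at -0.89 and Gjb6 at -1.01 in the Prestin strain, and Gjb2 at -0.69 and Gjb6 at -0.498 in the Sox2 strain, each called lower (adjusted p = 1.658e-06 to 0.0004514). Both genes thus lay below the median of all genes under either scaling.

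**Figure D4:**
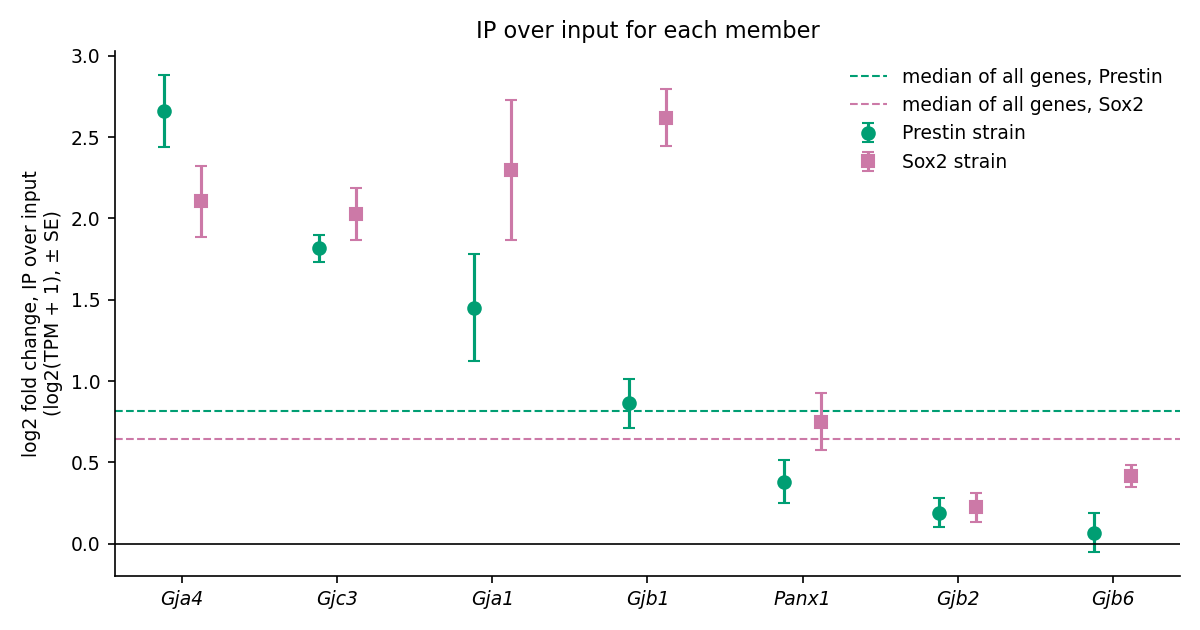
Log2 fold change of each member in IP over input, as a mean of the 3 conditions, for the Prestin and the Sox2 strain, with bars for the standard error and a line for the median of all genes tested. Gjb2 and Gjb6 lie under that line in both strains, and Gja4 and Gjc3 lie above it in both.

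Gjb1 and Gjc3, the connexins known from Schwann cells, were both higher in the IPs of both strains in the deposited scaling. In the Prestin strain Gjb1 lay near the median of all genes, and its enrichment was larger in the Sox2 strain. Gjb1 read 50.2 and 27.3 TPM in the Sox2 control IPs, 46.6 and 44.0 TPM at 6 h and 36.4, 45.5 and 62.3 TPM at 24 h, against 5.20 to 8.03 TPM in the Sox2 inputs. In the Prestin IPs it read 13.7, 11.2 and 24.9 TPM in controls, 14.6, 12.8 and 18.9 TPM at 6 h and 11.7, 9.10 and 12.5 TPM at 24 h, against 4.68 to 11.6 TPM in the Prestin inputs. The Sox2 IPs were apart from all other libraries, and the Prestin IPs overlapped with their inputs. Gjb1 was enriched by 0.86 ± 0.15 in the Prestin strain (adjusted p = 0.00011) and by 2.62 ± 0.18 in the Sox2 strain (adjusted p = 1.1e-06). The median of all genes was 0.82 in the Prestin strain, where 47.7% of genes had a higher value than Gjb1. In the Sox2 strain the median was 0.65, and 1.42% of genes had a higher value. The difference of these enrichments, Prestin minus Sox2, was -1.76 ± 0.24 over all 32 libraries (adjusted p = 2.525e-05). In the control libraries alone it was -1.76 as well but did not pass (adjusted p = 0.115). In the fit over all 32 libraries Gjb1 was the only member of 7 called, against 21.6% of 19648 genes (7.62% lower in the Prestin strain). Gja1 also passed with the homogenate as a block, and Gja4 and Gjb6 without the IP of Prestin control replicate 1, as given below.

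Gjc3 in the Prestin IPs read 115, 163 and 169 TPM in controls, 148, 125 and 136 TPM at 6 h and 152, 134 and 153 TPM at 24 h, against 31.5 to 45.0 TPM in the inputs. In the Sox2 IPs it read 146 and 91.5 TPM in controls, 132 and 194 TPM at 6 h and 136, 172 and 238 TPM at 24 h, against 30.2 to 45.6 TPM in the inputs. No IP overlapped with an input in either strain. Gjc3 was enriched by 1.82 ± 0.08 in the Prestin strain (adjusted p = 1.16e-10) and 2.03 ± 0.16 in the Sox2 strain (adjusted p = 2.97e-06), and the difference between strains of -0.21 did not pass (adjusted p = 0.41). The 15 Schwann and satellite glia markers summed to 3398 to 9446 TPM in the Sox2 IPs, against 977 to 1407 TPM in the Sox2 inputs, and to 1554 to 2630 TPM in the Prestin IPs, against 815 to 1438 TPM in the Prestin inputs. Of these markers 15 of 15 were called higher in the Sox2 IPs (median 2.38, against 0.65 over all genes, of which 55.2% were higher). In the Prestin IPs 12 of 15 were called higher, with a median of 0.82 that equalled the 0.82 of all genes, of which 68.5% were higher. None was at 0 in a group. Their part in the Gjb1 and Gjc3 enrichments was not tested.

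Gja4 had the largest enrichment of the 7 in the Prestin strain. It read 15.0, 55.7 and 60.1 TPM in the control IPs, 68.5, 52.7 and 64.2 TPM at 6 h and 63.2, 103 and 78.6 TPM at 24 h, against 5.97 to 12.98 TPM in the inputs. In the Sox2 IPs it read 20.0 and 36.7 TPM in controls, 43.3 and 44.2 TPM at 6 h and 54.1, 32.1 and 41.2 TPM at 24 h, against 4.39 to 14.4 TPM in the inputs. Every IP lay above every input of its strain, and the lowest IP was Prestin control replicate 1. The enrichment was 2.66 ± 0.22 in the Prestin strain (adjusted p = 4.39e-08) and 2.10 ± 0.22 in the Sox2 strain (adjusted p = 1.9e-05), with a difference between strains of 0.56 ± 0.33 (adjusted p = 0.24). Without the IP of Prestin control replicate 1 that difference was 0.77 and passed (adjusted p = 0.0202), as did that of Gjb6 at -0.43 (adjusted p = 0.00839). In the Prestin IPs all 3 libraries at 24 h lay above the controls, with a log2 difference of 1.09 ± 0.48 (adjusted p = 0.197). Of 10 endothelial markers 9 were called higher and 1 lower in the Prestin IPs, where 68.5% of all genes were higher. Their median was 1.13, against 0.82 over all genes. In the Sox2 IPs 5 were higher and 1 lower, with a median of 0.55 against 0.65 over all genes, of which 55.2% were higher. They summed to 320 to 503 TPM in the Prestin IPs, against 208 to 333 TPM in the inputs, and to 226 to 441 TPM in the Sox2 IPs, against 227 to 359 TPM in the inputs, with none at 0 in a group. The part of endothelial RNA in Gja4 was not tested.

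Gja1 differed widely between libraries of a group. In the Sox2 IPs it read 97.1 and 66.5 TPM in controls, 10.2 and 17.1 TPM at 6 h and 40.7, 90.7 and 10.8 TPM at 24 h. The Sox2 inputs read 11.5 and 10.7 TPM in controls, 3.30 and 3.10 TPM at 6 h and 5.85, 10.9 and 2.94 TPM at 24 h. In both fractions the 6 h libraries lay below the controls, and the 24 h libraries spanned almost the whole range. In the Prestin IPs it read 6.02, 22.7 and 19.3 TPM in controls, 14.8, 46.6 and 20.8 TPM at 6 h and 16.7, 18.1 and 17.5 TPM at 24 h, against inputs of 3.89 to 24.3 TPM. The highest input was that of replicate 2 at 6 h, from the homogenate of the highest Prestin IP. Gja1 was enriched by 1.45 ± 0.33 in the Prestin strain (adjusted p = 0.00101) and by 2.30 ± 0.43 in the Sox2 strain (adjusted p = 0.00104). The difference between strains was -0.85 ± 0.55 (adjusted p = 0.29), and with the homogenate as a block it passed (adjusted p = 0.0345). The Sox2 IP difference from control was -2.52 ± 0.91 at 6 h (adjusted p = 0.231) and -1.19 ± 0.83 at 24 h (adjusted p = 0.593).

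The summed level of 8 markers of central nervous system glia moved with Gja1. The summed level of Aqp4, Slc1a2, Mog, Mobp, Opalin, Olig1, Olig2 and Agt, a list chosen after the data were seen, was 701 and 1046 TPM in the Sox2 control IPs, 64.4 and 137 TPM at 6 h and 219, 756 and 108 TPM at 24 h. In the Sox2 inputs it was 30.4 to 127 TPM, in the Prestin IPs 32.3 to 98.4 TPM and in the Prestin inputs 29.7 to 126 TPM, the highest being replicate 2 at 6 h. Opalin was at 0 in both Sox2 groups at 6 h. The genes of the sum did not move alike. Most of the sum in the Sox2 control IPs came from genes other than Aqp4, Mog and Mobp. In the Sox2 IPs Aqp4 read 36.7 and 38.4 TPM at 6 h, against 49.4 and 56.2 TPM in controls. Mog read 0.712 and 10.3 TPM at 6 h, against 10.1 and 25.8 TPM in controls. Mobp read 1.65 and 11.8 TPM, against 20.0 and 37.0 TPM. Of the 8 genes 5 were called higher and none lower in the Sox2 IPs over input, where 55.2% of all genes were higher. That count is near that share, while the median was 2.06, against 0.65 over all genes. In the Prestin strain 2 of the 7 tested were higher and 1 lower, where 68.5% of all genes were higher. The median there was 0.22, against 0.82 over all genes. On the log2(TPM + 1) scale Gja1 correlated with this sum with r = 0.831 over the 32 libraries, which share strain, fraction and scaling. Within a strain and fraction r was 0.950 in the 7 Sox2 IPs, 0.900 in the 7 Sox2 inputs, 0.816 in the 9 Prestin IPs and 0.923 in the 9 Prestin inputs. Each of these values pools controls, 6 h and 24 h, so it includes differences between conditions. The part of such tissue in the Gja1 differences was not tested.

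**Figure D5:**
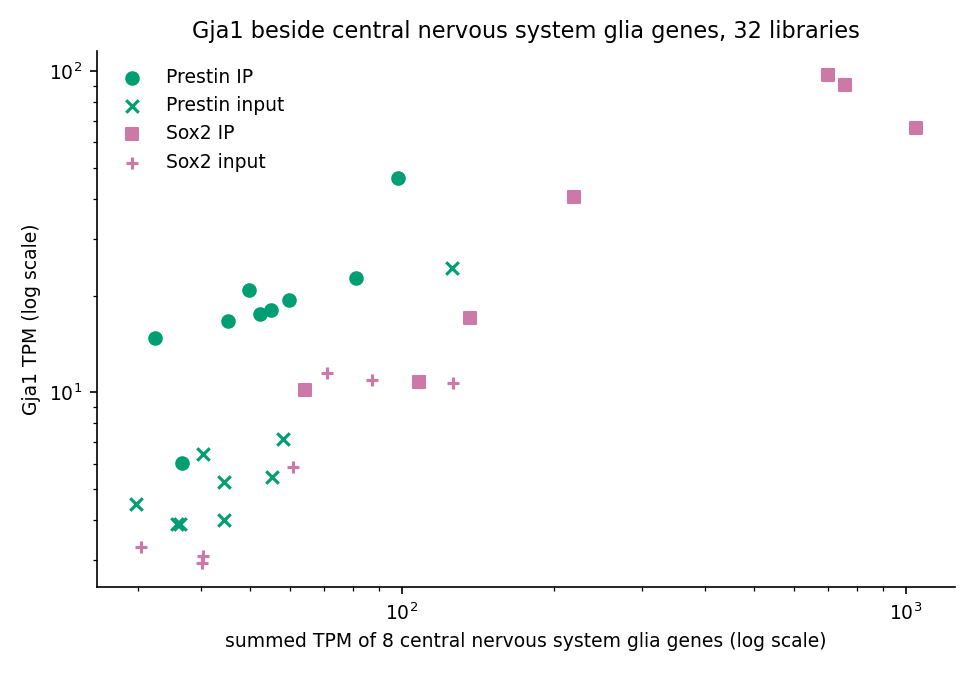
Gja1 TPM against the summed TPM of 8 central nervous system glia markers in the 32 libraries, both axes on a log scale, by strain and fraction. The libraries with the most Gja1, between 66.5 and 97.1 TPM, are the 3 Sox2 IPs with marker sums of 701 to 1046 TPM.

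Panx1, the ATP release channel, was near the lower limit of what was tested. It read 0.654 to 2.16 TPM in the Prestin IPs, against 0.686 to 1.87 TPM in the inputs, and 1.33 to 3.46 TPM in the Sox2 IPs, against 0.443 to 1.83 TPM in the inputs. The IPs overlapped with the inputs in both strains. The IP lay above its own input in 7 of 9 Prestin and 7 of 7 Sox2 homogenates, and the log2 enrichment was 0.38 ± 0.13 (adjusted p = 0.0176) in the Prestin strain and 0.75 ± 0.18 (adjusted p = 0.00426) in the Sox2 strain. With median-of-ratios scaling these were -0.18 and 0.20, and neither was called.

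Of the 16 other connexin and pannexin genes, Gjd2 and Panx2, both known from neurons, were the highest, at 5.81 to 114 TPM and 8.42 to 114 TPM over the 32 libraries. Gjd2 read 24.2 to 93.5 TPM in the Prestin control IPs, against 16.6 to 19.2 TPM in their inputs. Gja10 and Gje1 were listed at 0 in all 32 libraries. In the Prestin strain 4 of the 7 tested were higher in the IPs and none lower, where 68.5% of all genes were higher. Among the 4 were Gjd2 (1.95), Panx2 (1.59) and Gjc1 (1.48), and the median was 0.84, against 0.82 over all genes. In the Sox2 strain 4 of 6 were higher and none lower, where 55.2% of all genes were higher. Among the 4 were Gjd2 (1.87), Panx2 (0.87) and Gjc1, and the median was 0.94, against 0.65 over all genes. Counts this near those shares are no result about the list. Gjc1 was enriched more in the Prestin than in the Sox2 strain, just under the threshold (0.48, adjusted p = 0.0496). It was 1 of 2 called among the 9 tested for that difference, where 21.6% of all genes were called. The median difference of the 9 was 0.42, against 0.19 over all genes. Of the 4 tested in the inputs, limma called 0 at 6 h and 0 at 24 h, with 0 at 6 h and 2 at 24 h at an unadjusted p under 0.05.

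Around the channels, 4 lists of related genes were followed. Their counts stand beside 68.5% of all genes higher in the Prestin IPs (median 0.82) and 55.2% in the Sox2 IPs (median 0.65), and counts near these shares are no result about a list. Of 12 partners and trafficking genes of connexins, 9 were higher and 1 lower in the Prestin IPs (median 0.86), among them Tjp1, the scaffold protein of tight and gap junctions, and the ubiquitin ligase gene Nedd4, and 9 were higher and none lower in the Sox2 IPs (median 0.81). Of the purinergic receptors and ectonucleotidases, 13 of 17 were higher in the Prestin IPs (median 0.98), such as the ATP-gated channels P2rx4 (1.85) and P2rx7 (2.06), and 12 of 16 in the Sox2 IPs (median 1.05), such as P2rx4 (1.31) and the adenosine receptor Adora2b (1.97). None was lower in either strain. Of the other ATP release and large-pore channels, 7 of 9 were higher and none lower in each strain, with Lrrc8a, a subunit of the volume-regulated anion channel, at 2.45 in the Prestin strain. Of 12 genes of potassium circulation, 5 were higher and 3 lower in the Prestin IPs (median -0.01) and 6 higher and 5 lower in the Sox2 IPs (median 0.15). In the Sox2 strain the cotransporter Slc12a7 (1.72) and the potassium channel Kcnj16 (1.59) were among the higher and Kcne1 (-0.78), a channel subunit of the stria vascularis, among the lower.

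After noise 4 of 43 genes of these lists were called in the inputs at 6 h, where 8.54% of all genes were called, and 5 of 43 at 24 h, where 4.44% were. At 6 h Cdh1 (0.54 ± 0.08, adjusted p = 0.0011), which encodes E-cadherin, was the only one of 11 partners called, and the ATP receptor P2ry2 rose (0.65 ± 0.12, adjusted p = 0.0038) while the ectonucleotidase Entpd2 fell (-1.28 ± 0.28, adjusted p = 0.013), 2 of 12 in the purinergic list. Of 8 other ATP release channels Lrrc8e rose (0.50, adjusted p = 0.036). At 24 h Ctnnb1 (0.25, adjusted p = 0.0054), the gene of beta-catenin, and Cdh1 (0.31, adjusted p = 0.041) rose, as did the ATP-gated channel P2rx2 (0.65, adjusted p = 0.016) and Lrrc8d (0.31, adjusted p = 0.021), while Entpd8 fell (-0.70, adjusted p = 0.033). Of the 12 potassium genes limma called 0 at either time, with 6 at 6 h and 2 at 24 h at an unadjusted p under 0.05. In the Prestin IPs limma called 0 of 50 genes of these 4 lists at 6 h and at 24 h, with 11 and 12 at an unadjusted p under 0.05, against 5.63% and 6.23% of all genes called. In the Sox2 IPs it called 0 of 49 at both times, with 13 at each time at an unadjusted p under 0.05, against 0.694% of all genes called at 6 h and 0.188% at 24 h.

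By Pearson r of log2(TPM + 1) over the 32 libraries, among 9262 genes that averaged 5 TPM or more, the genes most like Gjb2 were Tgfbr2 (0.911), Lgals3bp (0.856) and Usp18 (0.833), and those most like Gjb6 were Aldh6a1 (0.836), Idh2 (0.835) and Ccdc102a (0.816). Gjb2 and Gjb6 correlated with each other with r = 0.271. Among those most like Gjb1 were the myelin genes Mbp (0.955) and Pmp22 (0.943), among those most like Gja1 were Ttyh1 (0.950) and Marcks (0.925), and those most like Gja4 were Lpar6 (0.978), Irs1 (0.974) and Zfp597 (0.974). Gjc3 was most like Galc (0.983), Qk (0.979) and Gtf3c4 (0.978), and among those most like Panx1 were Slc16a1 (0.795) and Gatm (0.790). The libraries share strain, fraction and composition, so these values are a description.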

How the data were processed

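Values were the TPM per gene that the authors deposited, 1 file per library. The submitters' processing notes name TopHat and GRCm38. The read counter, the TPM tool, the annotation, versions and strand use were not given in the sources used here. A NEBNext Ultra Directional kit was used, per the labels' protocols. TPM keeps no depth, so no counting interval is given.

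Tests ran on log2(TPM + 1) in limma 3.58.1 (R 4.3.3, lmFit and eBayes with a trend), two-sided, with Benjamini-Hochberg adjustment over all genes tested and a threshold of 0.05. Fold changes are on that scale, which understates low genes. The filter asked for 1 TPM or more in at least 3 (Prestin), 2 (Sox2 and both strains) or 5 (inputs) libraries. IP against input is the mean of the 3 conditions of a strain. Inputs of both strains were fitted with strain as covariate. There were 16 comparisons. The fit was tested on simulated data. IP and input of a homogenate pair by design, and their deviations from group means correlated with r from 0.0209 to 0.273, highest with the own input in 16 of 16. These 16 are not independent, since deviations within a group are tied, and in groups of 2 both IPs give the same r. Results were recomputed with median-of-ratios scaling, without the filter, with a pseudocount of 0.1, with blocks, jointly over IP and input, on subsets, and without single libraries. Files were read with python 3.11.15, pandas 2.3.3 and numpy 2.4.6, and figures drawn with matplotlib 3.10.9.

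The members, lists and tests were chosen with earlier results of these data known. Named genes are the 7 members, Slc26a5 and Sox2, the other connexins and pannexins that passed the filter, up to 4 genes of smallest p per list and comparison, and 3 genes of highest correlation with each member. Some genes that this rule takes are not reported here. Malat1, the central glia list and other connexins under the filter were chosen after their values were seen.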

Additional observations from a re-analysis of the deposited data

Results flagged for a closer look

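The enrichment of Gjb1 in IP over input differed between the strains by the interaction term of a limma fit over all 32 libraries, with a Prestin minus Sox2 difference of -1.76 ± 0.24 on the log2(TPM + 1) scale (adjusted p = 2.525e-05). All 7 Sox2 IPs, at 27.3 to 62.3 TPM, lay above all 9 Prestin IPs, at 9.10 to 24.9 TPM, while the inputs overlapped at 5.20 to 8.03 TPM in the Sox2 strain and 4.68 to 11.6 TPM in the Prestin strain. The 15 Schwann and satellite glia markers differed in the same direction, with 13 of 15 called lower and none higher in the Prestin strain and a median difference of -1.41, against 7.62% of all genes called lower and a median of 0.19. Supporting cell markers (10 of 14 lower, none higher, median -1.20) and central nervous system glia markers, a list chosen after the data were seen (5 of 8 lower, none higher, median -1.62), differed that way too. Whether any of these accounts for the Gjb1 difference was not tested.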

How the results depend on the processing

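With median-of-ratios scaling the Prestin IP against input values of Gjb2 (-0.89), Gjb6 (-1.01), Gjb1 (-0.11) and Panx1 (-0.18) and the Sox2 values of Gjb2 (-0.69) and Gjb6 (-0.498) turned to the other side. Among the 7 members, the control libraries alone called 2 in the Prestin enrichment, where all libraries called 5, and 0 in the Prestin minus Sox2 difference, where all libraries called 1, the homogenate block 2, and leaving out Prestin control homogenate 1, chosen after the data were seen, 3. The Sox2 inputs alone called 0 at 6 h, 0 at 24 h and 1 between 24 h and 6 h. The replicate number as a block called 0 in the inputs at 24 h (Gjb2 0.38, adjusted p = 0.0876) and 0 in the Prestin IPs at 24 h, as did no filter there. Replicate numbers did not pair samples across conditions (r of -0.0659 to 0.0555). The joint fit of IP and input called 1 in the Prestin IPs at 6 h, 1 between 24 h and 6 h, and 1 in the Sox2 IPs at 24 h. Leaving out 1 library gave 1 to 3 called in the Prestin minus Sox2 difference, 0 to 1 in the Prestin IPs at 24 h and 0 to 1 in the Prestin interactions at 6 h and at 24 h. Leaving out the Sox2 6 h libraries, also chosen afterwards, changed no count of members called by over 1.5 times in the 5 comparisons it touched. Depth is unknown, so limits for Panx1 at about 1 TPM could not be set.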
